A study of Mus musculus with 7 samples.

Results

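Excitation-contraction coupling turns the electrical signal at the surface of a skeletal muscle fiber into calcium release and contraction, and it was followed here through 10 genes in RNAseq libraries of fetal muscle fibers. The genes (*Ryr1*, *Cacna1s*, *Cacnb1*, *Cacng1*, *Atp2a1*, *Casq1*, *Casq2*, *Trdn*, *Jph2* and *Stac3*) were chosen by symbol, and all 10 were found among the 31531 genes measured. The libraries came from 7 mouse fetuses at E17.5, 4 labelled WT and 3 labelled homozygous for *dyW*, with 1 library per fetus and no treatment named. The *dyW* allele disrupts *Lama2*, the gene for the α2 chain of the main laminin of muscle basement membranes, in every cell of the body and not in muscle alone, and it is used as a mouse model of LAMA2-congenital muscular dystrophy. The line is kept on a C57BL/6 background, and litters came from carrier parents. Fibers of the epaxial muscles, the deep muscles beside the spine, were freed with dispase and collagenase, kept on a strainer and lysed, and no sorting step is described.

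In a skeletal muscle fiber, the voltage sensor is a calcium channel complex in the T tubule, an inward fold of the plasma membrane. *Cacna1s* encodes its voltage-sensing subunit, *Cacnb1* and *Cacng1* encode its β and γ subunits, and *Stac3* encodes an adaptor that the complex needs to work. The sensor acts by direct contact on the ryanodine receptor encoded by *Ryr1*, which releases calcium from the sarcoplasmic reticulum (SR), and junctophilins such as the product of *Jph2* hold both membranes together. Within the SR, calsequestrins (*Casq1*, *Casq2*) store calcium and triadin (*Trdn*) ties them to the release channel, whereas the pump encoded by *Atp2a1* returns calcium to the store. The calsequestrin of *Casq2* is the form of the heart and of slow fibers, and it is also made by fetal muscle.

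Several libraries stood apart before any comparison of these genes. Between 470804 and 2220813 reads fell on genes in WT and between 3663905 and 18297106 in *dyW*, so that 1 read was worth between 2.05 and 5.33 normalized counts in WT but between 0.0974 and 0.488 in *dyW*. The targeted gene, *Lama2*, had 90.6 to 111 normalized counts in the WT libraries, 4.29 in dyW1 and 6.07 in dyW2, but 139.7 in the library titled as replicate 3 of *dyW*. That library goes against its label and is called the library labelled dyW3. The label of muscle fibers was checked against 14 myofiber markers, of which 6 were at 0 in dyW1 and their sum was 70.4 normalized counts there, against 6555 and 10870 in the other two libraries labelled *dyW* and 2810 to 80148 in WT. A set of 5 cartilage markers summed to 433621 normalized counts in WT1, 17.3% of that library, and to at most 7908 in any other library. A set of 5 erythroid markers summed to 16.0 in WT1 and 14.2 in dyW1, against 22249 to 253237 in the other libraries, and they took 8.62% of the library labelled dyW3. A set of 6 fibroblast markers summed to 4116 to 12484 in WT and to 20348 to 28133 in the libraries labelled *dyW*, without overlap. Of 6 heart markers, 3 were analysed, and 2 of these (*Myh6* and *Myl7*) were at 0 in every library labelled *dyW*, whereas *Myh6* reached 20.5 to 45.8 in WT and *Myl7* was at 0 in WT1 as well. The third, *Myl4*, which fetal skeletal muscle also makes, had 25.7, 189.2 and 241.2 in the libraries labelled *dyW*, so that the sum of the heart markers overlapped with that of WT (85.3 to 361). The part of these differences between the libraries in the results for the 10 genes was not tested. In whole lysates, fewer fibers and less RNA per fiber cannot be told apart.

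All 10 genes had at least 1 read in every WT library, whereas 5 of them had a read in dyW1, 8 in dyW2 and 5 in the library labelled dyW3. Of the 25791 tested genes, 90.3% to 98.4% had a read in the WT libraries, 59.6% in dyW1, 50.7% in dyW2 and 65.9% in the library labelled dyW3. Compared with WT, *Cacna1s* and *Cacng1*, both of the voltage sensor, were lower in the libraries labelled *dyW*, and they were the 2 of 10 genes past the thresholds of an adjusted P-value under 0.01 (limma, Benjamini-Hochberg over 25791 genes) and an absolute log2 fold change over 1.5. None of the 10 was higher (0 of 10). Over all tested genes, 18.7% were lower and 0.0659% higher at these thresholds, so the share among the 10 genes was near that of the transcriptome. With the adjusted P-value relaxed to under 0.05, 3 of the 10 genes were lower, against 29.6% of all tested genes. Every WT library lay above every library labelled *dyW* for *Cacna1s*, *Cacng1* and *Jph2*, 3 of 10, where 31.5% of all tested genes had this pattern. The median log2 fold change of the 10 genes was −3.29, and that of all tested genes was −1.99. The medians became −2.55 and −0.98 when every library was given one common total and −0.79 and 0.06 with quantile normalization. With a mean of at least 50, which kept 4 of the 10 genes, they were −2.10 and 0.20, and after subtraction of the receptor level, a background taken from genes that fibers are not known to use, which kept 7, they were 0.43 and 0.92. Under one common total and quantile normalization, 0 and 2 of all tested genes, respectively, were lower at the thresholds, none of them among the 10 genes. Without WT2, without WT4, without dyW2, and without WT1 and dyW1 together, the number was 0 over all tested genes. Of the 10 genes, 1 passed without dyW1, where 7.76% of all tested genes were lower, and 3 passed without the library labelled dyW3, where 25.8% were, or without it and dyW1, where 26.7% were.

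**Figure D1:**
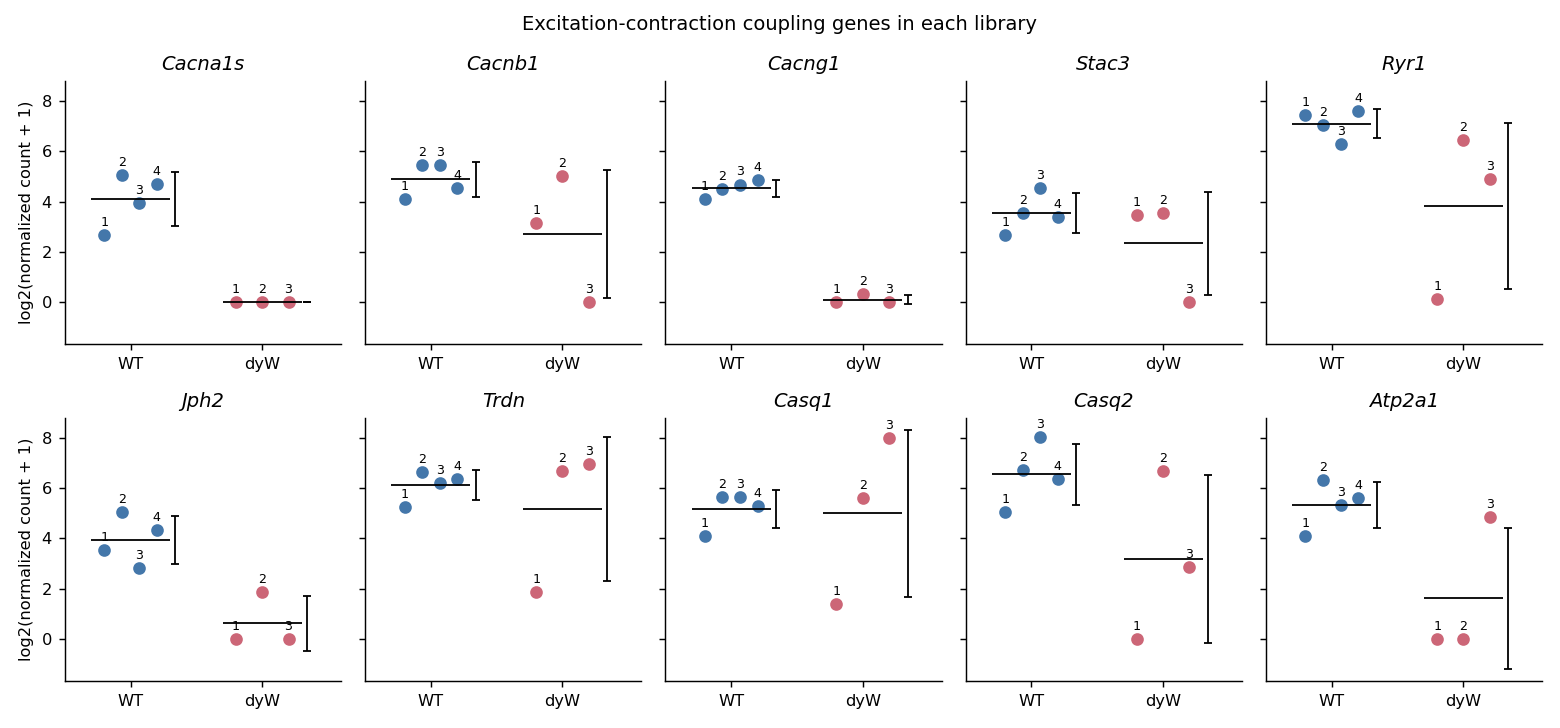
Each panel plots log2(normalized count + 1) of 1 gene by labelled genotype, with 1 point per library marked with its replicate number, a line at the group mean and a bar of ±1 SD beside it (WT, n = 4, and libraries labelled *dyW*, n = 3). *Cacna1s*, *Cacng1* and *Jph2* separate the groups, while the points labelled *dyW* of *Casq1* and *Trdn* spread from below to above the WT points.

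The libraries labelled *dyW* were unlike one another. In dyW1, 9 of the 10 genes were below the lowest WT library and *Stac3* was within the WT range, where 53.1% of all tested genes were below theirs. In dyW2, which held myofiber RNA and little *Lama2*, 4 genes were below the WT range (*Cacna1s*, *Cacng1*, *Atp2a1* and *Jph2*), 5 were within it (*Ryr1*, *Cacnb1*, *Casq1*, *Casq2* and *Stac3*) and *Trdn* was just above it, where 58.5% of all tested genes were below the range and 15.4% above it. In the library labelled dyW3, 7 genes were below the range, *Atp2a1* was within it, and *Casq1* and *Trdn* were above it, where 48.2% of all tested genes were below the range and 22.9% above it.

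The 250 bases upstream of the start of the Ensembl canonical transcript were read from GRCm39 for the genes on which these contrasts turn, the 2 that passed the thresholds and *Casq1* and *Trdn*, which exceeded the WT range in the library labelled dyW3. The sequences run 5′ to 3′ on the strand of the gene, and capitals mark an E-box (CANNTG, the same on both strands), the motif bound by myogenic factors and by many other proteins.
Cacna1s (GRCm39, chr1:135980009-135980258, plus strand): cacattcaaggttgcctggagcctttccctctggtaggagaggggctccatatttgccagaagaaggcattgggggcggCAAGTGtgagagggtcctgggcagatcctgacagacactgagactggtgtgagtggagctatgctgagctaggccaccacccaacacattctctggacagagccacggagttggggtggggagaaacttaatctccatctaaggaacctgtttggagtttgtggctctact
Cacng1 (GRCm39, chr11:107607409-107607658, minus strand): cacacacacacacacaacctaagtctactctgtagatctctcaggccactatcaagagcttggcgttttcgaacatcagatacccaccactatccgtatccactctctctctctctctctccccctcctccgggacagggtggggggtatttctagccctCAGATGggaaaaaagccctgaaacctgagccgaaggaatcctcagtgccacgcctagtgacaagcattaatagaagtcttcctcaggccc
Casq1 (GRCm39, chr1:172047753-172048002, minus strand): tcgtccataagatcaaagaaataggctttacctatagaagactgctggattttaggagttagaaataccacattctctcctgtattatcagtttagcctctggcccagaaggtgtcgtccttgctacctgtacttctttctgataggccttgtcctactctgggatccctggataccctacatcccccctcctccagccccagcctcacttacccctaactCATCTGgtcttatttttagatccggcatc
Trdn (GRCm39, chr10:32956300-32956549, plus strand): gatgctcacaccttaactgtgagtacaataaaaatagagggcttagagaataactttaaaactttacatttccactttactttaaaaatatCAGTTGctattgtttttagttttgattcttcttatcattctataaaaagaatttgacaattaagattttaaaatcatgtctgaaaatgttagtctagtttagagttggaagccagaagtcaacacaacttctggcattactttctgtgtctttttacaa
Each of these windows held 1 E-box. It ended 166 bases before the start in *Cacna1s*, 85 in *Cacng1*, 24 in *Casq1* and 154 in *Trdn*. Over the 10 genes, 5 windows held an E-box, where 64.8% of the 21770 windows taken the same way for protein-coding genes did. The E-box form CAGCTG was in 1 window, that of *Casq2*, and in 11.9% of all windows. A MEF2 motif, searched on both strands, was in 1 window, that of *Casq1*, and in 2.79% of all, and TATAAA on the strand of the gene was in that of *Trdn* and in 8.03% of all.

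Of the voltage sensor genes, *Cacna1s* (chromosome 1 of GRCm39, 135980259 to 136047560, plus strand) had no read in any library labelled *dyW*. From WT1 to WT4 it had 5.33, 32.4, 14.4 and 25.2 normalized counts, which rest on 1, 12, 7 and 8 reads. The groups did not overlap, and 28 reads in 5929584 counted in WT stood against 0 reads in 36324799 counted in the libraries labelled *dyW*. Those deeper libraries had a read for only 45.1% to 61.4% of all 31531 genes, against 81% to 93.9% in WT. In WT, *Cacna1s* itself had 0.195 to 0.597 times the receptor level. The part of this background in the difference was not tested. The mean in WT was 19.3 ± 11.9 normalized counts (SD, n = 4), at least 27.1-fold higher than the level of 0.712 that 3 reads in each library labelled *dyW* would give. In limma, the log2 fold change came to −4.09 ± 0.77 (SE) with an adjusted P-value of 0.00478, and the exact two-sided permutation test gave P = 0.0571, the smallest value that the 35 splits of 7 libraries allow. With every value labelled *dyW* at 0, the size of this change depends on the pseudocount. It was −7.32 with a pseudocount of 0.1 and −1.45 with 10 (limma adjusted P-value of 0.0411 with 10). Leaving out WT2, WT4, dyW1 or dyW2 took the limma adjusted P-value to between 0.0136 and 0.0222, and over the alternatives in which the gene was tested it ranged from 0.000763 to 0.524. It fell under the filter, and was not tested, with a mean of at least 50 and after subtraction of the receptor level.

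*Cacng1* (chromosome 11, 107591493 to 107607408, minus strand), the γ subunit that is found in skeletal muscle channels, had 16.0, 21.6, 24.6 and 28.3 normalized counts in WT1 to WT4, the tightest group of the 10 genes in WT relative to its mean. In the libraries labelled *dyW* it had 0 in dyW1, 0.253 in dyW2 and 0 in the library labelled dyW3. These values rest on 32 reads in WT and 2 reads in the libraries labelled *dyW*, which after weighting by what 1 read is worth in each library is a ratio of 0.0042 (95% exact interval 0.00049 to 0.0165, counting error only). In limma, the log2 fold change came to −4.43 ± 0.64 (SE) with an adjusted P-value of 0.00372 and an exact two-sided permutation P = 0.0571, and the limma adjusted P-value ranged from 0.000724 to 0.702 over the alternatives in which it was tested. The size of this change also depends on the pseudocount, at −7.19 with 0.1 and −1.68 with 10 (limma adjusted P-value of 0.0325 with 10).

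The remaining parts of the voltage sensor did not pass. *Cacnb1* (chromosome 11, 97892204 to 97913860, minus strand) had 16.0, 43.1, 43.1 and 22.0 normalized counts in WT and 7.80, 31.4 and 0 in dyW1, dyW2 and the library labelled dyW3. The groups overlapped through dyW2, and limma gave −2.17 ± 1.15 (SE) for the log2 fold change, with an adjusted P-value of 0.180. It was −0.81 without the library labelled dyW3 (adjusted P-value of 0.420) and −3.32 without dyW2 (0.0479). *Stac3* (chromosome 10, 127337542 to 127344696, plus strand) had 5.33, 10.8, 22.6 and 9.44 in WT and 10.1, 10.8 and 0 in the libraries labelled *dyW*. Only the library labelled dyW3 was below the WT range of *Stac3*, and the log2 fold change of −1.20 ± 1.03 (SE) had a limma adjusted P-value of 0.403. Without that library it was −0.03, with an adjusted P-value of 0.978 (range over the alternatives that tested it 0.259 to 0.992).

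The release channel gene *Ryr1* (chromosome 7, 28702769 to 28824604, minus strand) had 170.6, 129.4, 77.9 and 191.9 normalized counts in WT. In dyW1 it was at 0.0974, which is 1 read, but it had 87.0 in dyW2 and 28.8 in the library labelled dyW3. The WT mean was 142.5 ± 50.2 (SD, n = 4) against a mean of 38.6 ± 44.3 (SD, n = 3) for the libraries labelled *dyW*, with dyW2 inside the WT range. The log2 fold change of −3.26 (SE 1.34) did not pass (limma adjusted P-value of 0.0926). It was −1.41 without dyW1 (adjusted P-value of 0.170) and −4.57 without dyW2 (0.0300). It was −1.30 without WT1 and dyW1 (adjusted P-value of 0.257) within a range of 0.0300 to 0.911 over the alternatives.

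*Jph2* (chromosome 2, 163178162 to 163239920, minus strand) had 10.7, 32.4, 6.15 and 18.9 normalized counts in WT, and 0, 2.66 and 0 in the libraries labelled *dyW*. The groups did not overlap, but WT3, with 3 reads, was close to dyW2, with 21. Its log2 fold change of −3.32 ± 0.85 (SE) had a limma adjusted P-value of 0.0161, so it passed at 0.05 and not at 0.01 (0.0531 without WT4), and the exact two-sided permutation test gave P = 0.0571.

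*Trdn* (chromosome 10, 32956550 to 33356376, plus strand) had 37.3, 97.1, 71.8 and 81.8 normalized counts in WT1 to WT4. It had 2.63 in dyW1, 100.2 in dyW2 and 123.1 in the library labelled dyW3. The first of these was below every WT library and the other two were above every WT library. The WT mean was 72.0 ± 25.4 (SD, n = 4) and that of the libraries labelled *dyW* was 75.3 ± 64.0 (SD, n = 3), a difference within the spread of both groups (limma log2 fold change −0.95, SE 1.20, adjusted P-value of 0.573; exact two-sided permutation P = 0.914). The log2 fold change of *Trdn* was 0.70 without dyW1 and −1.85 without the library labelled dyW3.

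The 2 calsequestrin genes differed in the library labelled dyW3. *Casq1* (chromosome 1, 172037459 to 172049328, minus strand) had 16.0, 48.5, 49.2 and 37.8 normalized counts in WT, then 1.66 in dyW1, 47.2 in dyW2 and 249.5 in the library labelled dyW3, its highest value of the 7 libraries. The values labelled *dyW* thus ran from below to above the WT range (log2 fold change −0.17, SE 1.37, limma adjusted P-value of 0.935), and the log2 fold change was 1.62 without dyW1 and −1.66 without the library labelled dyW3. *Casq2* (chromosome 3, 101993234 to 102056307, plus strand) had 32.0, 102.5, 260.5 and 81.8 in WT, and 0, 99.5 and 6.35 in the libraries labelled *dyW*. Here dyW2 was within the WT range and the other two were below it (log2 fold change −3.36, SE 1.45, limma adjusted P-value of 0.106). Without dyW1 the log2 fold change of *Casq2* was −1.77 (adjusted P-value of 0.289), and without dyW2 it was −5.10 (0.0185).

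*Atp2a1* (chromosome 7, 126045013 to 126063423, minus strand), the pump of fast fibers, had 16.0, 78.2, 39.0 and 47.2 normalized counts in WT. It had no read in dyW1 or in dyW2, whereas the library labelled dyW3 had 57 reads and 27.8 normalized counts, inside the WT range. The log2 fold change of −3.71 ± 1.26 (SE) had a limma adjusted P-value of 0.0540, and without the library labelled dyW3 it was −5.33 with an adjusted P-value of 0.00199, where 25.8% of all tested genes were lower at the thresholds. Over the alternatives in which it was tested, the limma adjusted P-value of *Atp2a1* ranged from 0.000582 to 0.583. *Rabep2*, on the opposite strand, overlaps it in GENCODE, and the strand setting of the counting is not given in the sources used here. Other annotated genes also overlap *Ryr1*, *Cacna1s*, *Cacnb1*, *Casq1*, *Casq2*, *Trdn* (10 of them) and *Jph2*, whereas none overlaps *Cacng1* or *Stac3*.

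**Figure D2:**
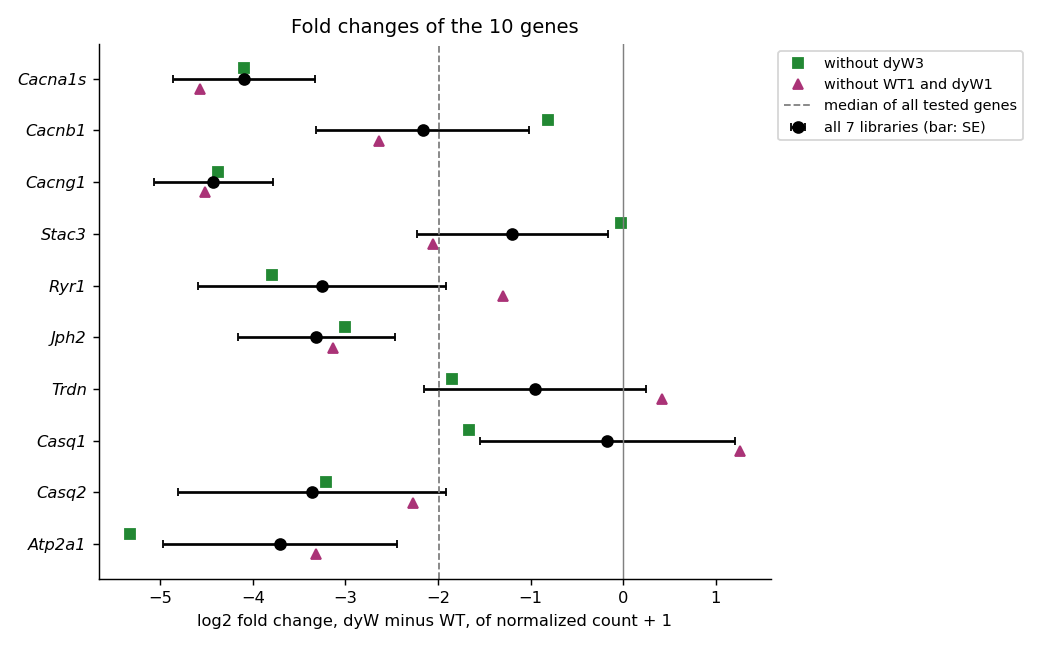
The log2 fold change of normalized count + 1 (horizontal axis, *dyW* minus WT) is plotted for each gene over all 7 libraries with its SE as a bar (circles), without the library labelled dyW3 (squares) and without WT1 and dyW1 (triangles). The dashed line is the median of all tested genes, −1.99, and the circles of *Cacng1* (−4.43) and *Cacna1s* (−4.09) lie farthest to the left, whereas *Casq1* and *Trdn* move to the right of 0 without WT1 and dyW1.

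Set per kb of annotated exon, so that genes can be compared with one another, *Casq2* had the highest mean level in WT, 20.9 ± 17.3 normalized counts per kb (SD, n = 4). It was followed by *Cacng1* with 10.3 ± 2.37, *Atp2a1* with 6.68 ± 3.81, *Ryr1* with 6.53 ± 2.30, *Casq1* with 6.11 ± 2.50 and *Cacnb1* with 5.41 ± 2.46. The lowest levels per kb were those of *Stac3* (3.69), *Trdn* (3.43), *Jph2* (2.45) and *Cacna1s* (2.38). Each gene in this order differed from its neighbour by less than the larger of their SDs, so the order is loose. In the libraries labelled *dyW*, *Casq1* stood first with 16.0 ± 21.3 normalized counts per kb (SD, n = 3), and *Jph2* (0.128), *Cacng1* (0.0383) and *Cacna1s* (0) stood last. Neighbours in this order did not differ beyond their spread either.

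The levels were also set against genes that muscle fibers are not known to use, the 1208 odorant and vomeronasal receptor genes. Their median was 0.632 to 2.48 reads per kb of exon in the WT libraries, 0 in dyW1 and dyW2, and 1.07 in the library labelled dyW3. In WT, *Cacna1s* had 0.195 to 0.597 times the reads that this receptor level gives for its exon length, that is, fewer than the median receptor gene in all 4 libraries. *Jph2* (0.245 to 0.697 times) and *Trdn* (0.527 to 0.944 times) were also below it in all 4. *Cacng1* was above it in all 4, at 1.46 to 3.09 times, and so was *Casq2*, at 1.66 to 12.6 times. The other 5 genes lay on both sides of it. In the library labelled dyW3, *Casq1* was at 76.7 times, *Trdn* at 11.2 times, *Atp2a1* at 7.86 times, *Ryr1* at 2.52 times and *Casq2* at 2.12 times the receptor level, and the other 5 genes had no read.

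With the length of the canonical transcript in place of all annotated exons, *Cacna1s* had 0.223 to 0.720 times the receptor level in WT and *Cacng1* 2.30 to 4.90 times. *Trdn*, whose annotated exons add up to 21.0 kb but whose canonical transcript has 11.1 kb, then had 0.890 to 1.70 times. After the receptor level was subtracted from every gene of each library, 3 of the 10 genes (*Cacna1s*, *Jph2* and *Stac3*) fell under the filter on low counts. None of the 7 left passed the thresholds, and neither did any of all 17183 genes tested after the subtraction. *Cacng1* then had a log2 fold change of −3.50 (limma adjusted P-value of 0.115).

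**Figure D3:**
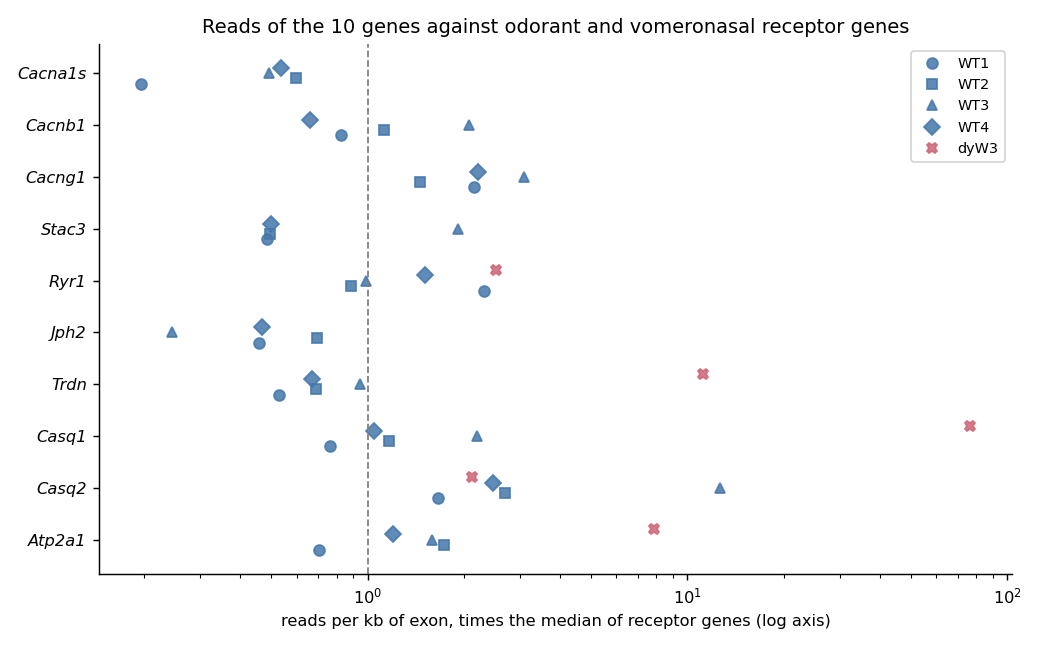
Reads per kb of exon of each gene are plotted as multiples of the median of odorant and vomeronasal receptor genes in the same library (log axis), for WT1 to WT4 and the library labelled dyW3, with genes at 0 left out and dyW1 and dyW2 not drawn because their receptor median was 0. Most WT points lie near the dashed line at 1, with *Casq2* in WT3 at 12.6, while *Casq1* of the library labelled dyW3 lies at 76.7.

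The genes were also divided by the summed myofiber markers of the same library. A gene with no read stays at 0 whatever it is divided by, so this says nothing about *Cacna1s* in the libraries labelled *dyW*, nor about *Cacng1* in dyW1 and the library labelled dyW3. Per 1000 normalized counts of myofiber markers, *Cacng1* had 0.307 to 5.69 in WT and 0.0233, from 2 reads, in dyW2. *Jph2* no longer separated the groups, since dyW2 (0.244) was above WT3 (0.0768). *Casq1* had 0.614 to 5.69 in WT and 4.34 to 38.1 in the libraries labelled *dyW*, and *Trdn* had 0.896 to 13.3 and 9.21 to 37.4, so that both overlapped between the groups. The sum of markers in dyW1 was so low that *Stac3* reached 144 and *Cacnb1* 110.8 per 1000 there, from 104 and 80 reads.

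For 5 of these genes a partner of the same kind was compared within each library, as the difference of their log2(normalized count + 1) values. Where one partner is at 0, as *Cacna1s* was in every library labelled *dyW*, this difference is set by the scaled count of the other partner and by the pseudocount. *Cacna1c*, the voltage-sensing subunit of the cardiac and smooth muscle channel, was above *Cacna1s* by 3.94, 1.91, 2.24 and 2.35 on the log2 scale in WT1 to WT4 and by 4.84, 4.61 and 6.59 in the libraries labelled *dyW*. This was the pair without overlap, with a mean difference of 2.74 between the groups (exact two-sided permutation P = 0.0571, adjusted over the 5 pairs 0.286). The mean difference was 5.93 with a pseudocount of 0.1 and 0.295 with a pseudocount of 10. *Cacna1c* itself had 71.8 to 132.2 normalized counts in WT and 23.4 to 95.2 in the libraries labelled *dyW* (limma log2 fold change −1.36, SE 0.68, adjusted P-value of 0.155).

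The other pairs overlapped. The balance of *Casq2* over *Casq1* was 0.96 to 2.38 in WT and −1.41, 1.06 and −5.09 in the libraries labelled *dyW* (difference −3.19, exact permutation P = 0.114, adjusted 0.286), and the difference was −1.55 without the library labelled dyW3 and −4.62 without dyW2. *Atp2a2*, the pump of heart and slow fibers that most other cells use as well, was above *Atp2a1* by 7.96 in dyW1 and 7.95 in dyW2 but by 0.07 in the library labelled dyW3, against −0.68 to 2.43 in WT (difference 4.55, exact permutation P = 0.229, adjusted 0.381), and the difference was 7.18 without the library labelled dyW3. *Ryr3*, a ryanodine receptor of developing muscle, stood against *Ryr1* at −1.08, 0.058, 0.14 and −0.97 in WT1 to WT4, and at −0.13 in dyW1, −3.22 in dyW2 and 1.34 in the library labelled dyW3 (difference −0.21, exact permutation P = 0.800). *Jph2* against *Jph1*, the junctophilin of skeletal muscle, was −1.84 to −0.31 in WT and −4.03, 1.70 and −3.55 in the libraries labelled *dyW* (difference −1.08, exact permutation P = 0.571). That difference was −0.043 without dyW1, −0.28 without the library labelled dyW3 and −2.91 without dyW2. In WT, *Ryr3* had 0.884 to 1.25 times the receptor level, *Jph1* 0.808 to 1.16 times and *Atp2a2* 0.592 to 2.20 times. The part of this background in the WT balances was not tested.

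**Figure D4:**
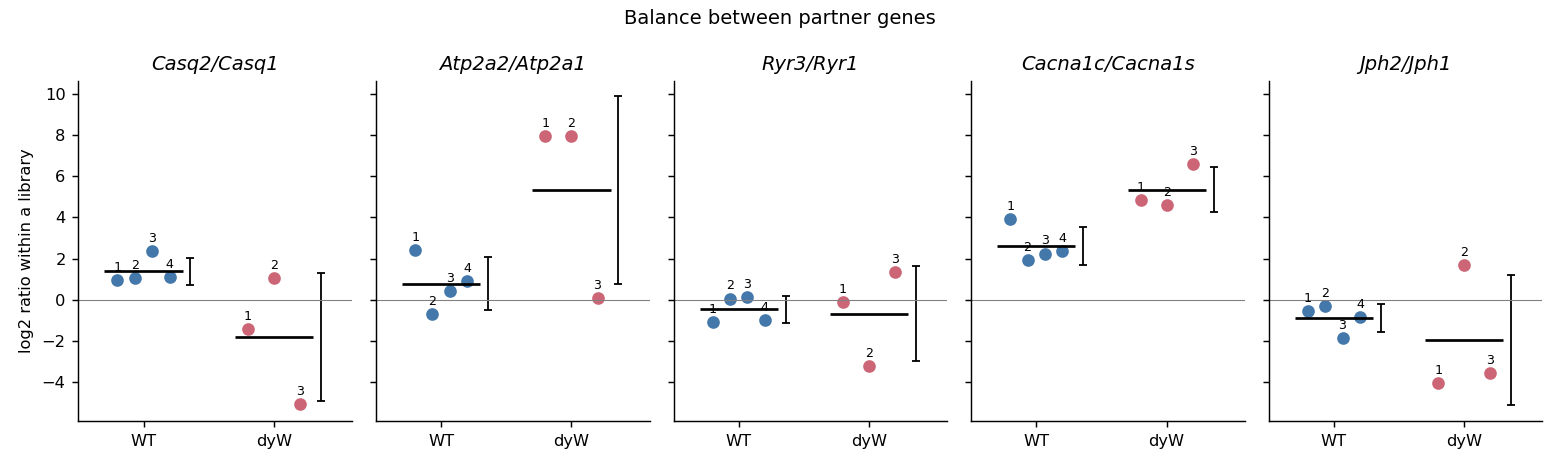
Each panel plots the log2 ratio of 2 partner genes (normalized count + 1) within each library by labelled genotype, with replicate numbers, the group mean as a line and ±1 SD as a bar. The *Cacna1c*/*Cacna1s* points of the libraries labelled *dyW*, 4.61 to 6.59, lie above all WT points, which reach 3.94, while the other 4 pairs overlap.

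The rest of the pathway was read through 6 lists with 59 genes, of which 57 were measured and 54 passed the filter on low counts. Of these 54, 3 were lower at the thresholds, 0 were higher, and 51 did not pass, against the 18.7% and 0.0659% of all tested genes. At an unadjusted P-value under 0.05 there were 16 of them, against 44.3% of all tested genes. *Cacna1d* and *Clcn1* were among them. *Cacna1d*, a calcium channel subunit of neurons and endocrine cells, had 65.6 to 129.0 normalized counts in WT and 0, 1.52 and 9.28 in the libraries labelled *dyW* (log2 fold change −4.87, SE 0.88, limma adjusted P-value of 0.00449). *Clcn1*, the chloride channel that steadies the resting potential of muscle fibers, had 16.0 to 67.4 in WT and 0, 0.253 and 0 in the libraries labelled *dyW* (−4.90, SE 0.74, adjusted 0.00372). In WT, *Cacna1d* had 0.769 to 1.56 times the receptor level and *Clcn1* 0.805 to 1.71 times. The count of lower genes was 12 without the library labelled dyW3, where 25.8% of all tested genes were lower, and 0 in the fits in which no gene of the transcriptome passed.

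By list, the medians differed. Among 10 genes of the voltage sensor and excitation, 2 were lower (*Cacna1d* and *Clcn1*) and the median log2 fold change was −2.99. Among 10 genes of T tubule and triad shaping, 1 was lower and the median was −2.48. None of 11 genes of the release channel and its regulators passed (median 0.27), nor did any of 10 junctional and luminal SR genes (0.26), of 4 genes of the pump, its small regulators and buffer (−1.06), or of 9 genes of store-operated entry and surface extrusion (−0.78). Over the lists, 12 of the 54 genes were higher in every WT library than in any library labelled *dyW*, against 31.5% of all tested genes, and 3 had the reverse pattern, against 3.28%. The 3 genes *Calr*, *Canx* and *Atp2b1*, named after their values were seen, were higher in every library labelled *dyW* than in any WT library. *Canx*, a chaperone of the endoplasmic reticulum in all cells, had 91.3 to 250.6 normalized counts in WT and 510.8 to 631.4 in the libraries labelled *dyW* (log2 fold change 1.65, SE 0.52, limma adjusted P-value of 0.0405), which did not pass at 0.01. With the adjusted P-value relaxed to under 0.05, 1% of all tested genes were higher.

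**Figure D5:**
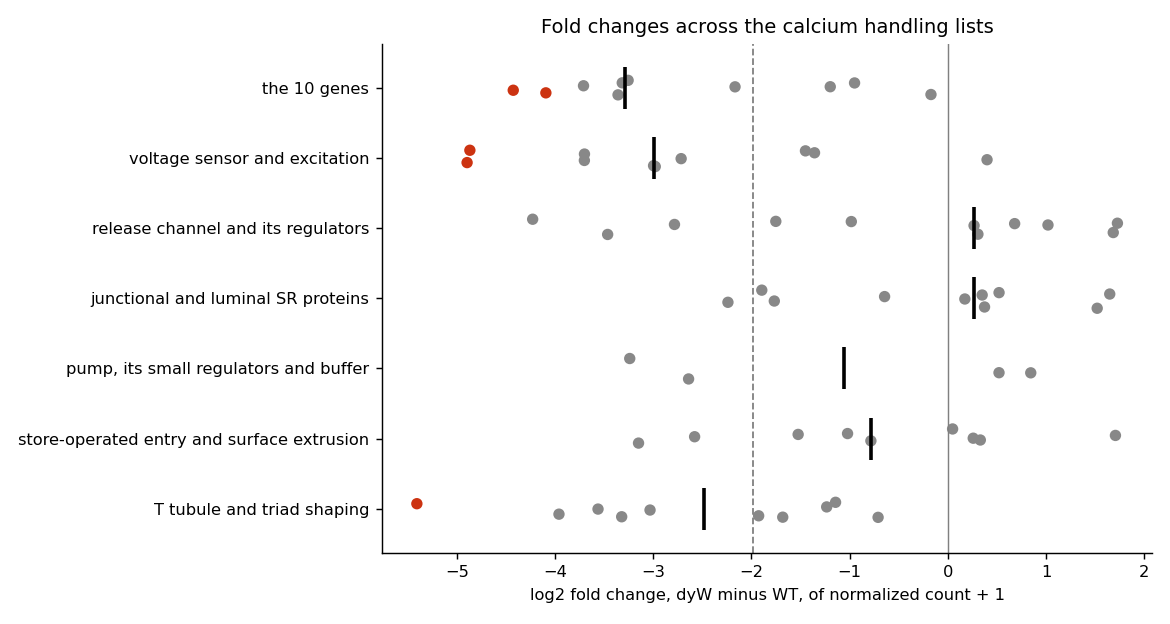
Points are log2 fold changes (*dyW* minus WT, normalized count + 1) of the 10 genes and of the tested genes of each list, with the vertical position within a list drawn at random, red points past the thresholds, short black lines at the list medians and a dashed line at the median of all tested genes, −1.99. The red points include *Cacna1s* and *Cacng1* among the 10 genes and *Cacna1d* and *Clcn1* in the excitation list.

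The genes whose pattern over the 7 libraries was most like that of the mean of the 10 standardised genes were sought among the 6107 genes whose mean normalized count reached 50. They were *Gm13340* (Pearson r of 0.992), *Ttn* (0.974), *Pgls* (0.968), *Gm14005* (0.953) and *Reln* (0.952), given as a description over 7 libraries that share their depth and scaling. *Ttn* encodes titin, the giant spring of the sarcomere, *Pgls* an enzyme of the pentose phosphate pathway and *Reln* a secreted matrix glycoprotein. The mean standardised level of the 10 genes was 0.11, 0.72, 0.60 and 0.58 in the order of the WT replicates, and it was −1.29 in dyW1, −0.12 in dyW2 and −0.61 in the library labelled dyW3. All WT libraries were therefore above all libraries labelled *dyW*, with WT1 and dyW2 nearest to each other.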

How the data were processed

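RNA of muscle fibers from 7 E17.5 fetuses was sequenced by the authors after SMART-seq2, which amplifies polyadenylated RNA without molecular identifiers, so intervals cover counting error only. Cutadapt, RNA STAR (GRCm39) and FeatureCounts were used by the authors, and versions, strand and annotation are not given in the sources used here. The values deposited by the authors are normalized counts, reads on genes divided by 1 size factor per library from DESeq2. A second deposited table holds the authors' own fold changes and P-values and was not used. Whole reads were recovered from the value of 1 read (100% of values whole within 0.1 of a read), and a count of 0 allows up to 3 reads.

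Genes with a mean of at least 5 were compared on log2(normalized count + 1) by lmFit and eBayes with a mean trend (limma 3.58.1, R 4.3.3) and Benjamini-Hochberg adjustment, without a block, and single values by exact two-sided permutation. A fold change on this scale understates that of low genes. On simulated data the fit called no unchanged gene, but it missed most of the changed genes at the larger of the spreads simulated. The simulation held no background and no overall shift between the groups, and it changed only genes with a mean of at least 50. It therefore cannot vouch for the calls of lower genes in these libraries. Exon lengths came from GENCODE 39, which held 99.2% of the gene identifiers. Python 3.11.15, pandas 2.3.3 and scipy 1.17.1 were used. The members and lists were chosen with earlier results of these data known. The rule for naming took the 10 genes, pathway genes past the thresholds, the 5 partners and the 5 genes of like pattern. *Calr*, *Canx*, *Atp2b1* and the pathway genes under the filter were named after their values were seen, and 1 pathway gene is not reported here. The planned count tests on recovered reads were not run, because a unit check in the workflow used here did not read values with decimal commas as numbers. Their place was taken by limma voom on the recovered reads. That alternative and those that leave out 2 libraries were chosen after seeing the data. The numbers shared by WT and dyW libraries did not pair them (correlations of deviations 0.147, −0.0494 and −0.0880).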

Additional observations from a re-analysis of the deposited data

Results flagged for a closer look

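The balance of *Casq2* over *Casq1* in WT had 1 library far from the rest. It was 2.38 in WT3 on the log2 scale, against 0.957, 1.06 and 1.10 in the others, and the gap from WT3 to its nearest neighbour was 0.903 of the whole range, above the critical ratio for 4 samples (Dixon, 95%). *Casq2* had 260.5 normalized counts in WT3, which also had the highest sum of myofiber markers (80148). The part of that sum in this value was not tested. Of 15 sets of 4 WT values examined, this was 1, and chance would mark about 1 in 20.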

How the results depend on the processing

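Of the 10 genes, 2 were lower at the thresholds, and the number was 0 with a mean of at least 50, with a pseudocount of 10, at one common total per library, after quantile normalization, after subtraction of the receptor level, with a replicate block, and without WT1 and dyW1. Over all tested genes these fits called 2 lower after quantile normalization, 1 with the block and 0 otherwise. Leaving out single libraries gave 0 to 3. The pathway genes went from 3 lower to 0 under these same alternatives, to 19 without dyW1 and the library labelled dyW3 (26.7% of all tested genes), and to 8 at an adjusted P-value under 0.05 (29.6%), where 1 was higher, and leaving out single libraries gave 0 to 12. None of the 10 genes was higher under any alternative run (limma), and 6 of them had an unadjusted P-value under 0.05 with all libraries, against 44.3% of all tested genes. A mean of at least 50 left 4 of the 10 genes tested and subtraction left 7, and for the other alternatives that lowered the counts the cause was not tested.

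Under the replicate block, which the check of pairing did not support, *Cacna1s* (−3.89) and *Cacng1* (−4.31) had an adjusted P-value of 0.0614, and the number of members lower was 0 and of pathway genes 0. The edgeR and DESeq2 tests planned on the recovered reads were not run, and limma voom, which took their place, gave 2 of the 10 genes and 2 pathway genes lower (23.6% of all tested genes).

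Directions turned as follows, with no call in any. After subtraction of the receptor level the log2 fold change was 0.43 for *Ryr1*, 0.95 for *Cacnb1*, 2.68 for *Casq1* and 5.11 for *Trdn*. After quantile normalization it was 0.94 for *Casq1*, 0.018 for *Jph2* and 1.22 for *Stac3*. At one common total it was 0.85 for *Casq1* and 0.11 for *Trdn*, and *Casq1* had 0.29 with a pseudocount of 10. Without WT1 and dyW1 it was 1.26 for *Casq1* and 0.42 for *Trdn*, and the fits that left out 1 library ranged from −1.66 to 1.62 for *Casq1* and from −1.85 to 0.70 for *Trdn*, with the highest values without dyW1 and the lowest without the library labelled dyW3. Without dyW1 and the library labelled dyW3 it was 0.13 for *Cacnb1*, 0.43 for *Casq1*, 0.12 for *Casq2*, 0.55 for *Trdn* and 0.0136 for *Stac3*. The balance of *Ryr3* over *Ryr1* was 0.0031 with a pseudocount of 10, and it ranged from −1.21 without the library labelled dyW3 to 1.06 without dyW2. The change of the mean normalized count, 162.6% for *Casq1* and 4.56% for *Trdn* with all libraries, ranged from −35.5% to 291.6% for *Casq1* and from −28.6% to 55.0% for *Trdn* when 1 library was left out, with the lowest values without the library labelled dyW3 and the highest without dyW1. It was also negative for *Trdn* without WT1 (−9.90%) and without dyW2 (−12.7%). Divided by the summed myofiber markers, it was 1498% for *Cacnb1* and 5900% for *Stac3*. The cause of these turns was not tested. Depth limits WT1 most, where 3 of the 10 genes had more than 3 reads.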

Other observations

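Of the pathway genes, 3 were measured but stayed under the filter on low counts. *Pvalb*, the calcium buffer of adult fast fibers, had 0, 5.39, 2.05 and 0 normalized counts in WT and 0, 8.98 and 0 in the libraries labelled *dyW*. *Trim72*, a membrane repair protein, had 0 to 6.29 in WT and at most 0.379 in the libraries labelled *dyW*. *Fkbp1b*, which binds ryanodine receptors, had 5.33 to 10.3 in WT and 1.36, 0 and 0 in the libraries labelled *dyW*.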
